A study of Gallus gallus with 66 samples.

Results

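The comparison described here is the course of culture itself in preadipocytes of the fat chicken line kept in control medium, 120 h against 12 h. It uses 6 of the 66 arrays of the series, 3 at each hour, chosen by the line, medium and hour in their titles. The cells came from the abdominal fat of male chickens aged 10 days, from a line with high abdominal fat content, and the fat of 15 birds was pooled for the line before collagenase digestion. The cells that sank in the centrifuge were taken as preadipocytes, freed of red cells with a lysis buffer, grown, passaged and brought close to confluence, which is the 0 h of the clock. Control cultures then stayed in the growth medium without oleate. The same line also has control arrays at 24 h and 72 h, which make a series of 12 arrays, and the comparison is set beside the lean line in control medium and beside the fat line in medium with 160 ug/ml oleate, each with 3 arrays at 12 h and 3 at 120 h. The arrays carry replicate numbers 1 to 3. The labels call them biological replicates but do not say whether they came from separate pools of birds, so the p-values below measure only the spread between these arrays, which may be technical in part.

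Preadipocytes are fibroblast-like precursors of the fat depot. After they reach confluence they stop dividing and, given an adipogenic stimulus, switch on the nuclear receptor PPARG, lipid carriers and lipid droplet coat proteins. Chicken preadipocytes accumulate little fat in plain medium, and oleate is used as the stimulus, so the control culture shows the course of culture without it. Time at confluence cannot be told apart there from other changes of the culture over the same hours. Stromal cells held at confluence are also known to remodel their matrix and to secrete chemokines, complement and growth factor binding proteins, and the digested fat depot holds resident macrophages beside the precursors.

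The 12 arrays of the fat line control series resembled each other closely. Pearson's r across probe sets was 0.943 to 0.965 within an hour (12 pairs) and 0.941 to 0.972 between hours (54 pairs). The 36 spiked poly-A control probe sets, which are no chicken genes, had a median difference of -0.41 between 120 h and 12 h. Their median was 7.51, 7.38 and 7.53 at 12 h and 7.38, 6.90 and 7.21 at 120 h, lower in each replicate number. The cause of this shift was not tested. Of the 36, 0 passed the test, which says little, since 0.24% of all probe sets tested did. All values are the deposited array values, read as log2, so that 1 unit is a doubling. The mean of 7 preadipocyte and stromal markers lay between 9.57 and 9.97 on the 6 arrays, against an array median of 4.17. COL1A1, the main fibrillar collagen chain, read 13.17, 13.15 and 13.24 at 12 h and 13.19, 13.26 and 13.22 at 120 h. PDGFRA, a receptor that marks adipose precursors, was low, between 2.37 and 4.73. The macrophage markers were also present: the mean of 10 of them was 7.55 to 7.76 at 12 h, well above the array median. CD4 was at the floor on all 6 arrays and 5 of 7 lymphocyte markers were below the array median on all 6. ADIPOQ, the adipokine of mature fat cells, was below the median on all 6 arrays as well. In bulk RNA of this kind, fewer cells of a type and less RNA per cell cannot be told apart.

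Between 12 h and 120 h, 53 of 22060 probe sets tested were called at an adjusted p under 0.05 (0.24%), 19 of them higher (0.0861%) and 34 lower (0.154%) at 120 h. The test was limma with all 22 groups sharing 1 estimate of the spread and Benjamini-Hochberg adjustment. At an unadjusted p under 0.05 there were 2414 probe sets (10.9%). On 1 representative probe set per named gene, 29 of 10176 genes were called (0.285%), 10 higher (0.0983%) and 19 lower (0.187%). The median difference over all genes was -0.0067.

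Arrays of the same replicate number resembled each other across hours. Over the 4 control hours, arrays of the same number deviated together from their group means in all 18 pairs, with correlations of 0.13 to 0.311. The 36 pairs of different numbers ran from -0.277 to 0.0569. Deviations from a group mean cancel out within an hour, so these lower values follow in part from the positive ones and are no separate evidence. With replicate number as a block, fitted on the 12 fat line control arrays, 983 probe sets were called (4.46%) and 612 genes (6.01%), of which 308 were higher (3.03%) and 304 lower (2.99%). Of the 29 genes called without the block, 27 were also called with it. Among the 612 genes, 96 were at least 1 log2 unit higher and 68 at least 1 unit lower. Taken number by number with no test, 3884 genes (38.2%) moved the same way in all 3 numbers, 1871 upward (18.4%) and 2013 downward (19.8%). For 1693 genes (16.6%) the 3 arrays of one hour did not overlap the 3 of the other.

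The count of calls rested on few arrays. Leaving out 1 of the 6 arrays gave 13 to 177 probe sets without the block: 177 without replicate 1 at 120 h, 38 without replicate 2 at 120 h, 13 without replicate 3 at 120 h, and 20, 32 and 13 without replicates 1, 2 and 3 at 12 h. Leaving out a whole replicate number gave 27, 17 and 4 without the block, and 1085, 344 and 113 with it, for numbers 1, 2 and 3. The blocked fit on the 6 arrays alone gave 317.

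The largest called falls that could be named were those of APOA1 and PTGDS. APOA1, the main protein of high-density lipoprotein, read 12.19, 11.04 and 9.76 at 12 h for replicate numbers 1, 2 and 3, and 7.93, 6.39 and 3.34 at 120 h. It dropped by 4.26, 4.65 and 6.42 in the 3 numbers from different starting levels, and the hours did not overlap. The difference was -5.11 (SE 0.90, adjusted p = 0.00387), and a second APOA1 probe set was called at -3.47. PTGDS, which makes prostaglandin D2, read 7.13, 5.13 and 4.80 at 12 h and stood at the floor on all 3 arrays at 120 h, a difference of -4.07 (SE 0.70, adjusted p = 0.00317) that the floor limits.

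MDK, midkine, a heparin-binding growth factor, read 9.28, 9.06 and 8.28 at 12 h and 7.05, 5.34 and 5.84 at 120 h, a difference of -2.79 (SE 0.64, adjusted p = 0.0407). NPR3, the clearance receptor for natriuretic peptides, went from 8.19, 8.06 and 8.50 to 6.44, 5.84 and 6.19, a difference of -2.10 (SE 0.49, adjusted p = 0.0423, and 1.2e-05 with the block). The 3 numbers of NPR3 lay within 1 unit of each other at both hours. A second NPR3 probe set differed by -2.27 and was not called. ID2, a helix-loop-helix protein without a DNA-binding region that holds back differentiation factors, read 10.49, 10.01 and 10.74 at 12 h and 8.71, 7.84 and 8.44 at 120 h. Its difference was -2.08 (SE 0.48, adjusted p = 0.0423, and 2.4e-06 with the block), and of its 4 probe sets a second was called at -2.09 while the other two were not.

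WNT2B, a Wnt ligand, fell by 2.98 from 5.86, 5.15 and 5.32 to 3.66, 2.10 and 1.61 (adjusted p = 0.0233), the last of these at the floor. CYP1A1, the cytochrome P450 induced through the aryl hydrocarbon receptor, fell by 2.94 (adjusted p = 0.0123), and ISM1, the secreted protein isthmin 1, by 2.23 (adjusted p = 0.0472). NOXO1, an organiser subunit of NADPH oxidase, fell by 1.74 (adjusted p = 0.0274). NHSL2, HSF2BP and ZNF385D fell by 2.54, 2.41 and 1.71. All of these had non-overlapping hours, as 16.6% of all genes did. Named falls were chosen as called and moving the same way in all 3 numbers, so such separation is no separate evidence. Of the 29 genes called, rises and falls together, 6 had at least 1 of the 6 arrays at the floor, which limits their differences. The second ZNF385D probe set differed by -0.78 and was not called. The 7 called falls beyond the 12 largest that could be named were C2orf40, passed over as a numbered open reading frame, and DOC2B, BHMT2, SAMD11, PPP1R3C, CSRNP1 and CHAMP1, with differences from -3.02 for C2orf40 to -0.40 for CHAMP1. PPP1R3C, a glycogen-targeting subunit of protein phosphatase 1, fell by 1.10, and BHMT2, a methyltransferase of methionine metabolism, fell by 1.37.

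**Figure D1:**
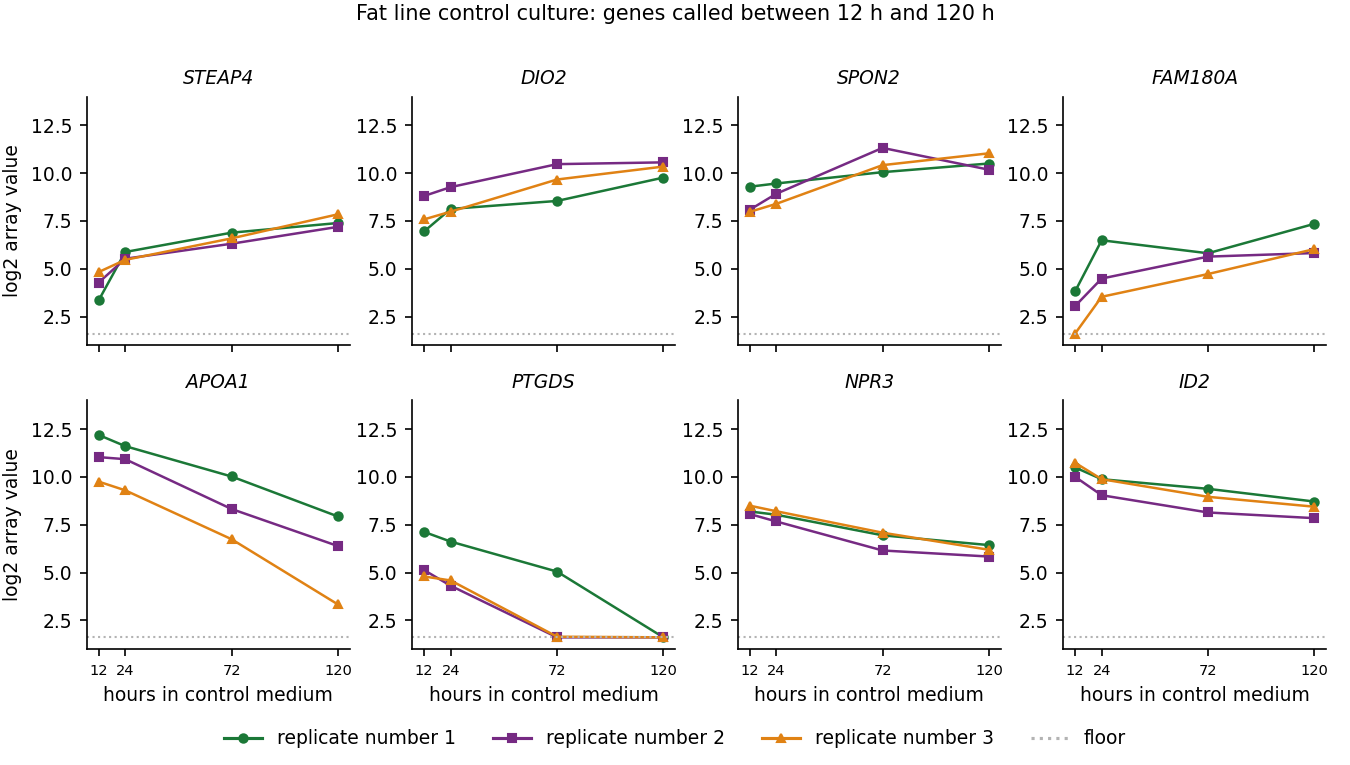
Log2 array values of 8 called genes on the 12 fat line control arrays against hours in control medium, 1 line per replicate number, with the floor as a dotted line. STEAP4, DIO2, SPON2 and FAM180A (top) climb over the 4 hours, and APOA1, PTGDS, NPR3 and ID2 (bottom) descend in all 3 numbers.

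The 10 genes called as higher at 120 h were led by FAM180A and STEAP4. FAM180A read 3.82, 3.05 and 1.61 at 12 h, the last at the floor, and 7.35, 5.82 and 6.03 at 120 h, a difference of 3.57 (SE 0.69, adjusted p = 0.00897). Its second probe set differed by 1.07 and was not called. STEAP4, a plasma membrane metalloreductase induced by inflammatory cytokines in mouse adipocytes, read 3.35, 4.28 and 4.83 and then 7.39, 7.19 and 7.85, a difference of 3.32 (SE 0.75, adjusted p = 0.0407). DIO2, the deiodinase that makes active thyroid hormone inside the cell, read 6.96, 8.81 and 7.58 and then 9.77, 10.57 and 10.34, a difference of 2.44 (SE 0.47, adjusted p = 0.00897). For all 3 genes every 120 h array stood above every 12 h array, as for 7.93% of all genes. This follows in part from their choice among called genes. The second STEAP4 probe set differed by 2.76 and was not called.

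SPON2, a secreted matrix protein, went from 9.29, 8.08 and 7.98 to 10.50, 10.18 and 11.04, a difference of 2.12 (SE 0.49, adjusted p = 0.0423). UNC80, a subunit of a sodium leak channel complex, rose by 2.20 (SE 0.51, adjusted p = 0.0423). These were the 2 genes that lost their call with the block, at adjusted p = 0.0756 for SPON2 and 0.0684 for UNC80. The other UNC80 probe sets differed by -0.66 and 1.02 and were not called. The second SPON2 probe set differed by 2.10 and was not called. CYP3A5, a cytochrome P450 of steroid and drug oxidation, rose by 2.02, and PDE7B, a phosphodiesterase that breaks down cyclic AMP, by 1.69. Their second probe sets differed by 2.60 and 0.44 and were not called. Smaller rises were 0.89 for ACSBG2, an acyl-CoA synthetase, and 0.50 for MTFR1L, a mitochondrial fission regulator.

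Calls of single genes depended on the array set in the same way as the count. Of the 22 genes named as the largest rises and falls, all 22 stayed called without replicate 1 at 120 h, but 7, 3, 4, 8 and 4 stayed called without replicates 2 and 3 at 120 h and replicates 1, 2 and 3 at 12 h. MVD was the gene called in all 6 of these fits. FAM180A, APOA1 and PTGDS were called in 5 of 6, with the highest adjusted p of 0.133 (without replicate 3 at 12 h), 0.0855 (without replicate 3 at 120 h) and 0.0536 (without replicate 1 at 12 h). Over all 25 alternatives to the main fit MVD lost its call in 4, with an adjusted p of up to 0.239. FAM180A, APOA1 and PTGDS lost theirs in 5, 5 and 4.

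Interferon response genes had the highest median difference of the 43 lists. Interferons are secreted on sensing foreign or misplaced nucleic acid and switch on antiviral effectors such as MX1, the nucleic acid sensor IFIH1 and the antigen-presenting chain B2M. Of 41 entries 32 were tested. All 32 had a positive difference, 28 were higher at 120 h in all 3 numbers (18.4% of all genes were), and the list median was 1.27. None was called without the block. With it 19 of 32 were called higher and 0 lower (3.03% of all genes were called higher).

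MX1 read 4.78, 10.14 and 6.66 at 12 h and 9.52, 12.25 and 12.00 at 120 h. IFI6, a mitochondrial antiviral protein, read 5.59, 10.74 and 7.31 and then 9.55, 13.04 and 12.76. In both genes replicate number 2 was already high at 12 h, above number 1 at 120 h, so the hours overlapped although every number climbed. The differences were 4.07 for MX1 (SE 2.21, adjusted p = 0.52, and 0.0248 with the block) and 3.90 for IFI6 (SE 2.08, adjusted p = 0.505, and 0.015 with the block). IFIT5, which binds foreign RNA, RSAD2, the antiviral radical SAM enzyme, and SAMD9L differed by 3.62, 3.64 and 2.99, all with the same order of the numbers at 120 h. IFI35 was the member with the smallest p in the blocked fit, at a difference of 1.24 (adjusted p = 0.000215 with the block).

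The list mean on the arrays was 5.88, 7.99 and 6.35 at 12 h and 7.54, 8.88 and 8.65 at 120 h for numbers 1, 2 and 3, and the median change by number was 1.03, 0.68 and 1.92. For 3 of the 32 genes (7.93% of all genes) the 120 h arrays all stood above the 12 h arrays. The blocked count of 19 became 9, 15 and 1 without replicate numbers 1, 2 and 3, and 4 when only the 6 arrays were fitted. The median step was 0.27 from 12 h to 24 h, 0.31 from 24 h to 72 h and 0.65 from 72 h to 120 h. Among other genes called with the block, PLAC8L1 (4.17), LYGL (3.31) and IFI27L2 (2.73) had the same pattern, with number 2 highest at 12 h. These 3 were picked after their values were seen.

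**Figure D2:**
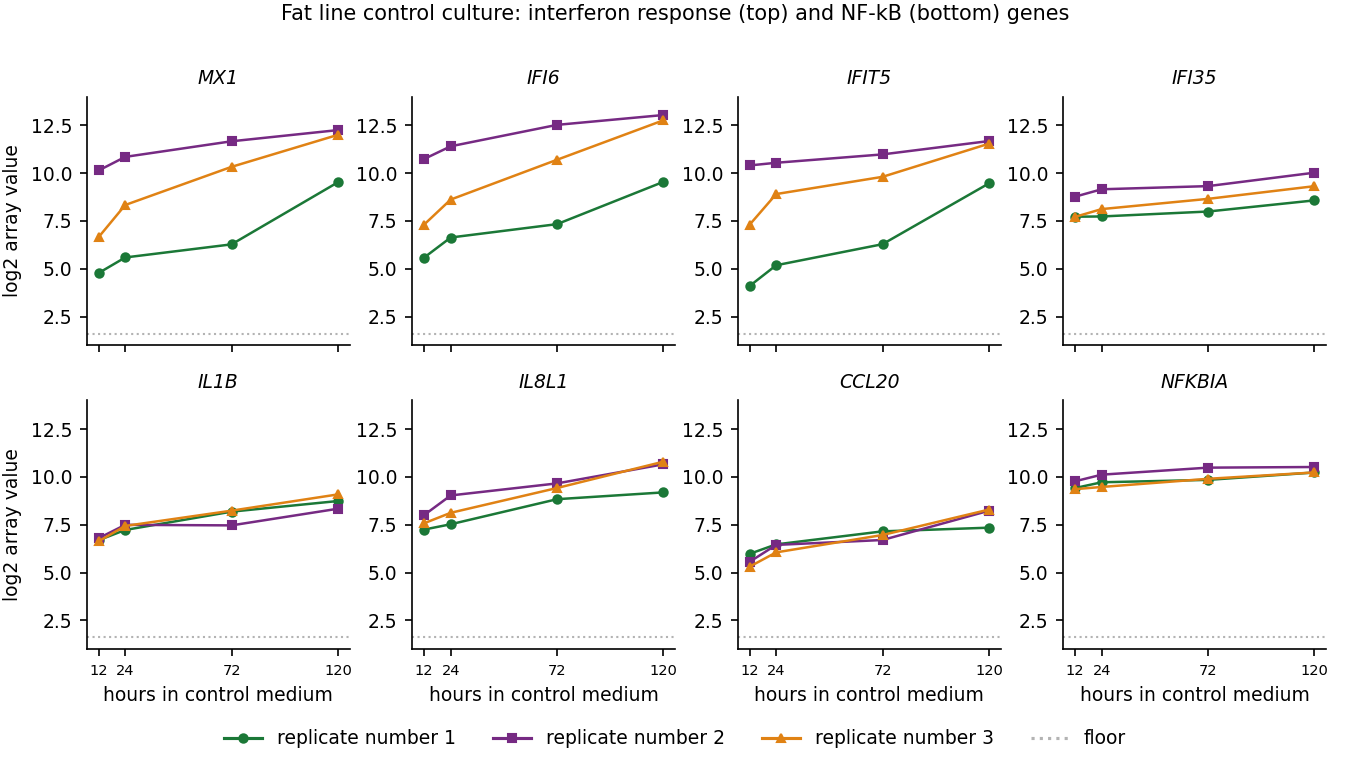
Log2 array values of 4 interferon response genes (top) and 4 inflammatory genes (bottom) on the 12 fat line control arrays against hours in control medium, 1 line per replicate number. The interferon genes start far apart, with number 2 highest, and all climb, while the inflammatory genes start close together.

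Of the inflammatory and NF-kB genes, more were called higher than lower with the block. NF-kB is the transcription factor that cytokines and microbial products release from its inhibitor, and its targets include chemokines, prostaglandin enzymes and its own brakes. Of 40 entries 34 were tested, 23 were higher at 120 h in all 3 numbers and 3 lower (18.4% and 19.8% of all genes were), and the list median was 0.59. None was called without the block, and 13 were called higher and 2 lower with it (3.03% and 2.99% of all genes were). The 13 became 15, 10 and 7 without numbers 1, 2 and 3, and 12 on the 6 arrays alone.

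IL1B, a cytokine upstream of NF-kB, read 6.69, 6.80 and 6.64 at 12 h and 8.74, 8.34 and 9.09 at 120 h. CCL20, a chemokine for immature dendritic cells, read 5.98, 5.56 and 5.31 and then 7.35, 8.23 and 8.29. For both genes all 120 h arrays were above all 12 h arrays, as for 7.93% of all genes. The differences were 2.01 for IL1B (adjusted p = 0.475, and 0.000121 with the block) and 2.34 for CCL20 (adjusted p = 0.36, and 0.0004 with the block). IL8L1, a chicken chemokine of the interleukin 8 type, differed by 2.61 (adjusted p = 9.9e-05 with the block) and CSF3, the granulocyte colony-stimulating factor, by 1.81, both called with the block.

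Of the NF-kB inhibitor genes in the list, NFKBIA, TNFAIP3 and NFKBIZ were called higher with the block. NFKBIZ differed by 0.84 (adjusted p = 0.0148 with the block). NFKBIE was not called (0.56, adjusted p = 0.354 with the block). NFKBIA, the inhibitor of NF-kB, read 9.42, 9.77 and 9.36 and then 10.23, 10.52 and 10.23, a difference of 0.81 (adjusted p = 0.000257 with the block). TNFAIP3, which ends the signal by editing ubiquitin chains, differed by 1.23 (adjusted p = 0.000116 with the block). The prostaglandin enzymes PTGS2 and PTGES differed by 0.68 and 0.99. IRF1, a factor held in this list and in the interferon list, differed by 2.04. The 2 members called lower were the chemokine CCL17 (-1.81) and TNFSF10 (-0.54).

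Of 16 complement and acute phase genes tested, 3 were called higher with the block (C1S, C1R and CLU) and 1 lower (CFI), against 3.03% and 2.99% of all genes. C1S, a protease that starts the classical pathway, read 8.04, 9.07 and 7.80 and then 9.27, 10.54 and 10.29, a difference of 1.73. CLU, the extracellular chaperone clusterin, differed by 1.57 (adjusted p = 0.0569, and 0.000145 with the block). CFI, which degrades activated complement, read 11.57, 11.08 and 11.17 and then 10.76, 9.38 and 9.12, a difference of -1.52.

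The 3 replicate numbers parted in their macrophage genes. At 12 h the mean of the 24 tested macrophage and myeloid genes was 6.91, 6.90 and 6.89 for numbers 1, 2 and 3, almost the same. At 120 h it was 7.75, 5.10 and 6.00, so number 1 stood higher and numbers 2 and 3 lower than they began. The median change by number was 0.90, -1.53 and -1.20. C1QB, a chain of the complement recognition protein made by macrophages, read 8.80, 8.77 and 8.63 and then 9.81, 4.07 and 5.72. CSF1R, the receptor macrophages need to survive, read 7.06, 7.09 and 7.86 and then 8.37, 3.98 and 6.06. C1QC ended at 8.63 in number 1 and at the floor in number 2.

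The difference of CSF1R, on which the numbers disagreed, was -1.21 (SE 0.87, adjusted p = 0.671, and 0.504 with the block). With the block 3 of the 24 were called higher and 1 lower, against 3.03% and 2.99% of all genes, and the 1 lower is about that share. These were CTSS (0.68), the protease CTSB (0.40) and the class II chain BLB1 (1.13) upward, and MERTK (-0.77), a receptor kinase for apoptotic cells, downward, and each of these moved the same way in all 3 numbers. CD74, the class II invariant chain, read 7.36, 7.88 and 6.91 and then 7.43, 6.84 and 6.55 and was not called. The mean of the macrophage list was lower at 120 h in numbers 2 and 3 while the interferon and NF-kB lists were higher at 120 h in all 3 numbers, and the part of macrophage RNA in those lists was not tested.

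**Figure D3:**
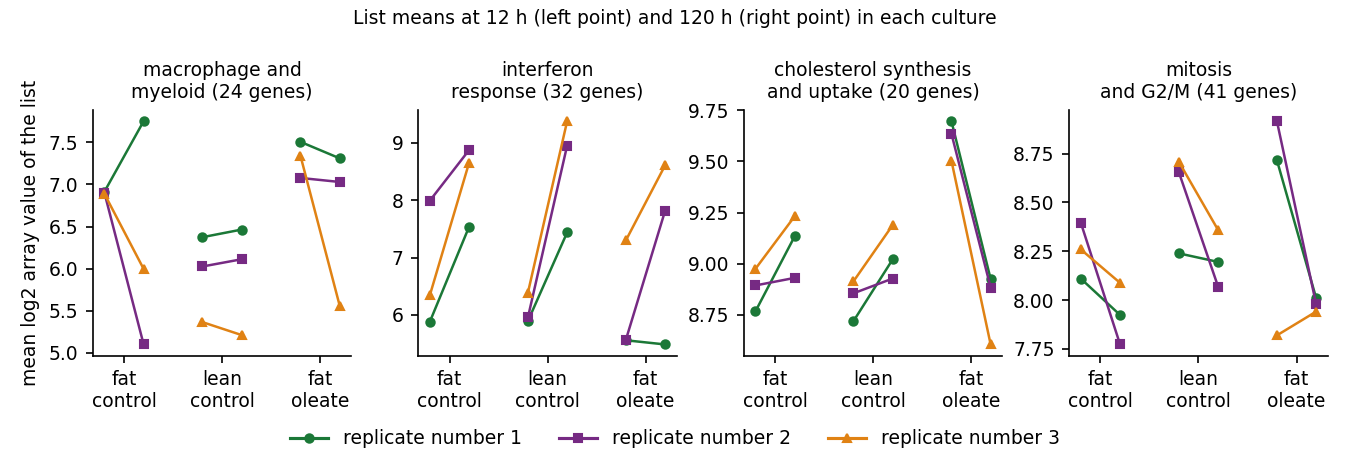
Mean log2 array value of 4 gene lists on each array, with 12 h as the left point and 120 h as the right point of each line, in fat control, lean control and fat oleate cultures. The vertical scale differs between panels. In fat control the macrophage lines start together and part, the interferon lines all climb, and the cholesterol lines change little next to fat oleate.

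Of 14 tested adipocyte and adipogenic genes, 0 were called without the block and 1 was called each way with it. Of all genes 3.03% were called higher and 2.99% lower, and 1 gene each way is too few to set against these shares. The list median was -0.06. PPARG read 7.32, 7.18 and 6.79 at 12 h and 7.88, 6.66 and 6.84 at 120 h, with overlapping hours (adjusted p = 0.987). FABP4, the fatty acid carrier of fat cells that macrophages also make, read 8.90, 8.13 and 7.93 and then 8.96, 6.77 and 5.56, level in number 1 and lower in numbers 2 and 3 (adjusted p = 0.586). CD36, a fatty acid uptake receptor that macrophages carry too, read 6.87, 5.98 and 7.11 and then 5.72, 2.81 and 3.94. It was called with the block at -2.49 (adjusted p = 0.00322, and 0.14 without it). KLF15, a factor of adipogenesis and amino acid metabolism in mammals, differed by 1.41 (adjusted p = 0.0147 with the block).

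PLIN2, a coat protein of lipid droplets, read 9.78, 9.63 and 10.01 and then 9.53, 9.47 and 9.38, lower at 120 h on every array, but was not called (adjusted p = 0.727, and 0.0656 with the block). Of 12 lipid droplet and triglyceride genes, G0S2, an inhibitor of the main triglyceride lipase, was called higher with the block at 0.51. MGLL, the monoglyceride lipase, was called lower at -0.88 (3.03% of all genes were called higher and 2.99% lower).

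Of the sterol genes MVD, the decarboxylase of the mevalonate pathway, was the one called. It read 2.28, 4.72 and 3.14 at 12 h and 5.66, 6.19 and 6.11 at 120 h, a difference of 2.60 (SE 0.38, adjusted p = 0.000249, and 0.0131 with the block). Its 12 h arrays were spread over more than 2 units and its 120 h arrays lay close together. At 12 h numbers 1 and 3 lay below the array median of 4.17, so the size of the rise rests on low values. The rest of the list stayed near its starting level: the median of 20 tested genes was 0.16. With the block 3 of the 20, MVD among them, were called higher (3.03% of all genes were). HMGCS1, which makes the precursor of mevalonate, differed by 0.29 and INSIG1, which retains the sterol sensor in the endoplasmic reticulum, by 0.40. Of 12 fatty acid synthesis genes only the desaturase FADS2 was called with the block, at 0.57, beside the same share of all genes. The list median was 0.17.

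In the insulin-like growth factor list 4 of 21 tested were called higher and 4 lower with the block, against 3.03% and 2.99% of all genes. IGF1, the ligand, read 3.71, 4.99 and 4.50 and then 5.93, 6.81 and 6.85, a difference of 2.13 (adjusted p = 0.113, and 0.000145 with the block). PAPPA, the protease that frees IGF1 from its binding proteins in mammals, differed by 2.54. IGFBP2, a binding protein, read 8.49, 7.47 and 6.98 and then 7.01, 4.88 and 4.69, a difference of -2.12 (adjusted p = 0.000155 with the block). IGFBP7 differed by 0.56, PIK3R1 by 0.49, FOXO1 by -0.65 and FOXO3 by -0.83.

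In the Wnt list 1 of 37 was called higher with the block, near the share of all genes (3.03%), and 6 lower (2.99% of all genes). Besides WNT2B these were the ligand WNT5A (-1.31), the secreted modulators DKK3 (-0.67) and FRZB (-0.79), and the receptors FZD1 (-0.45) and LGR4 (-0.36), while the receptor FZD2 differed by 0.51. In the TGF-beta and BMP list 2 of 41 were called higher and 4 lower, and the 2 higher are not far from the share of all genes. INHBA, a chain of activin, read 11.75, 12.22 and 11.99 and then 12.42, 12.70 and 12.55, a difference of 0.57 (adjusted p = 9.4e-05 with the block). The 4 called lower were ID2, its relative ID4 (-1.01), the inhibitory SMAD SMAD6 (-0.62) and the BMP antagonist CHRDL1 (-1.83). ID1 (-0.63), ID3 (-0.05), SMAD7 (-0.47) and BAMBI (-0.27), of the same families or also inhibitors of the pathway, were not called.

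**Figure D4:**
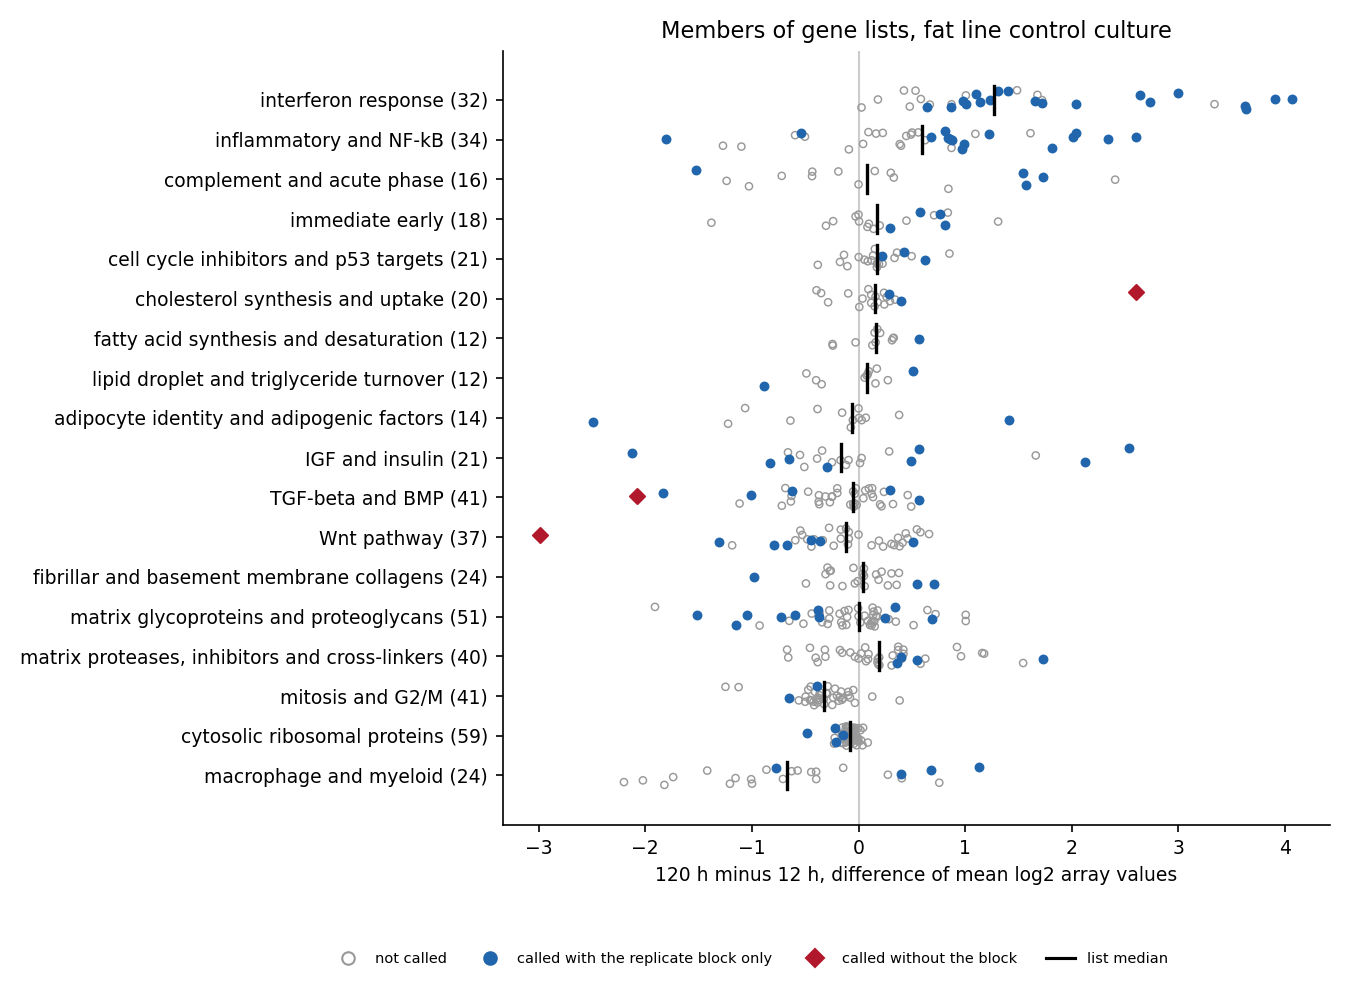
Difference between 120 h and 12 h in mean log2 array value for each tested member of 18 gene lists, with the number tested in brackets and the list median as a black bar. Red diamonds were called without the block, blue points with the replicate block only and open points in neither fit, and most blue points of the interferon and NF-kB lists lie to the right of 0.

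Of 24 collagen chains 2 were called higher and 1 lower with the block, against 3.03% and 2.99% of all genes. COL6A2 differed by 0.54, COL8A2 by 0.71 and COL14A1 by -0.98. Of 51 matrix glycoproteins and proteoglycans 3 were called higher and 7 lower, with a list median of 0. NID1, a basement membrane linker, read 8.64, 8.02 and 8.21 and then 7.45, 6.38 and 6.50, a difference of -1.51 (adjusted p = 0.158, and 0.000155 with the block), with LAMB1 (-0.73), NID2 (-0.60), EFEMP1 (-1.04) and SPP1 (-1.15) in the same direction and BGN (0.69) and POSTN (0.34) in the other. Of 40 proteases, inhibitors and cross-linkers 4 were called higher and 0 lower, among them PLAU, the urokinase protease (1.73), and the collagenolytic cathepsin CTSK (0.54).

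Mitotic genes were mostly lower at 120 h by small amounts, and DNA replication genes moved little. Of 41 mitotic genes 26 were lower at 120 h in all 3 numbers and 0 higher (19.8% of all genes were lower in all 3), with a list median of -0.33. For 12 of the 41 the 120 h arrays all stood below the 12 h arrays (8.71% of all genes). SMC4, a condensin subunit, and CENPK, a centromere protein, were called with the block at -0.39 and -0.65. These 2 of 41 are not far from the 2.99% of all genes called lower with it. TOP2A, a mitotic topoisomerase, read 8.56, 8.80 and 8.59 and then 8.17, 8.12 and 8.49 and was not called, nor was CDK1 (-0.10). Of 34 DNA replication genes 0 were called in either fit, with a median of -0.02. Among 21 cell cycle inhibitors CDKN1A (0.62), CDKN2A (0.43) and BTG1 (0.22) were called higher with the block and 0 lower. Of all genes 3.03% were called higher and 2.99% lower, which also holds beside the ribosomal count that follows. Of 59 cytosolic ribosomal proteins 32 were lower in all 3 numbers, 5 were called lower and the median was -0.08, so these shifts were small; RPLP0 (-0.49) was the largest of them.

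Other lists had a few members called with the block, to be read against the 3.03% of all genes called higher and the 2.99% called lower. Immediate early genes had 4 of 18 higher, including ATF3 (0.82), and lysosome and autophagy genes 4 of 46 higher, including the autophagy receptor SQSTM1 (0.90). Among 34 glycolysis and hypoxia genes 4 were called higher and 3 lower, with the carbonic anhydrase CA9 at 1.42 and the hypoxia factor EPAS1 at -1.47. AKR1D1, a steroid reductase, read 5.90, 6.28 and 6.61 and then 3.65, 3.37 and 4.87, and was 1 of 4 oxidative and detoxification genes called lower among 39. KRT7, a keratin of mesothelium, read 11.09, 10.49 and 10.61 and then 10.23, 8.68 and 8.52 (-1.58, adjusted p = 0.00285 with the block). It was 1 of 2 called lower among 11 mesothelial and epithelial genes, with 0 called higher and a list median of -0.02. The other was LRRN4 (-0.88, adjusted p = 0.00168 with the block). MSLN, a mesothelial marker in the same list, differed by 0.38 and was not called. ACTA2, smooth muscle actin, was not called (-0.04). The lists of contractile, endothelial, lymphocyte, neural, proteasome, ion channel, aminoacyl-tRNA synthetase and preadipocyte genes had 0 members called in either fit.

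Few probe sets were called over any single interval. Without the block, 0 probe sets were called between 12 h and 24 h, 1 between 24 h and 72 h (0.00453%), an MDM4 probe set, and 0 between 72 h and 120 h. At an unadjusted p under 0.05 the 3 steps gave 744 (3.37%), 1167 (5.29%) and 1274 (5.78%). With the block they gave 0, 17 (0.0771%) and 3 (0.0136%). APOA1 read 11.61, 10.93 and 9.30 at 24 h and 10.02, 8.32 and 6.74 at 72 h, so each number went down at every step. DIO2 read 8.13, 9.27 and 7.99 at 24 h and 8.55, 10.47 and 9.67 at 72 h, up at every step in each number. STEAP4 had reached 5.88, 5.53 and 5.47 by 24 h.

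Most genes called in the fat line went the same way in the lean line in control medium. Of the 29 genes called in the fat line, all 29 had the same sign in the lean line and 22 were called there (7.13% of all genes were called in the lean line). These 22 were 75.9% of the fat line's calls and 3.03% of the lean line's 726. Of the 612 genes called with the block in the fat line, 589 had the same sign in the lean line. Of the 612, 202 (33%) were called there with the same sign, without the block. With the block in the lean line too, 332 of the 612 were called there with the same sign (9.61% of all genes were called). The share of all genes with the same sign in both lines is not given here. APOA1 differed by -4.26 (SE 0.90) in the lean line, PTGDS by -4.34 (SE 0.70), DIO2 by 2.61 (SE 0.47) and STEAP4 by 3.46 (SE 0.75), all called. The 7 not called in the lean line were CYP1A1 (-1.57 there), NHSL2 (-0.64), HSF2BP (-0.59), NOXO1 (-0.38), ZNF385D (-0.87), PPP1R3C (-0.57) and MVD (0.98).

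The test of the difference between lines, without the block, called 5 of 22060 probe sets (0.0227%), and none was of a gene named above. For these 7 genes a call in one line and not in the other therefore does not show a line difference. With 3 arrays per group the test cannot show that the lines are alike either. PDAP1 read 10.06, 10.23 and 10.00 and then 10.08, 10.07 and 9.86 in the fat line (-0.09) and differed by -1.06 in the lean line, a difference of 0.97 between lines (adjusted p = 0.00393). REXO1 differed by -0.05 in the fat line and -0.87 in the lean line (adjusted p = 0.0241). With the replicate block, fitted on the control arrays of both lines, PDAP1 lost its call (adjusted p = 0.0541) and REXO1 kept it (adjusted p = 0.0491). The count of 5 ran from 0, without lean line replicate 3 at 120 h, to 19, without lean line replicate 2 at 12 h. The interferon list had a median of 2.00 in the lean line with 13 of 32 called higher (3.82% of all genes were), and 0 of the 32 differed between lines by the test.

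In medium with oleate 11 of 20 cholesterol genes were called lower at 120 h than at 12 h without the block. Of the 29 genes, 26 kept their sign in the fat line with oleate and 14 were called there (3.25% of all genes were called in oleate). The share of all genes with the same sign in both media is not given here. MVD differed by 2.60 in control and by -0.46 (SE 0.38) in oleate, a difference between media of -3.07 (SE 0.54). It was the 1 gene called by that test without the block (0.00983%), and the count with the block was larger. That test called 0 probe sets without replicate 2 at 120 h or replicate 1 at 12 h in oleate, or without replicate 2 or 3 at 120 h or replicate 1 at 12 h in control, and 236 without replicate 3 at 12 h in oleate. The cholesterol list had a median of 0.16 in control and -0.92 in oleate, and 1.66% of all genes were called lower in oleate. The list mean was 8.77, 8.89 and 8.97 at 12 h and 9.13, 8.93 and 9.23 at 120 h in control. It was 9.70, 9.64 and 9.50 at 12 h and 8.93, 8.88 and 8.60 at 120 h in oleate, so the oleate cultures began higher. NSDHL, a sterol dehydrogenase, differed by 0.34 in control and -1.45 in oleate, and ELOVL6, a fatty acid elongase, by 0.18 and -1.76. FAM180A, UNC80 and ACSBG2, which rose in control, differed by 0.43, -0.49 and -0.15 in oleate and were not called there. The difference between media was not called for them. For the interferon list the median in oleate was 0.90. Of its 32 genes 0 were called higher without the block and 1 with it (1.59% and 2.17% of all genes). Its mean in oleate was 5.56, 5.57 and 7.30 at 12 h and 5.48, 7.82 and 8.61 at 120 h, so number 1 did not rise. Without the block 0 of the 32 differed between media by the test.

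**Figure D5:**
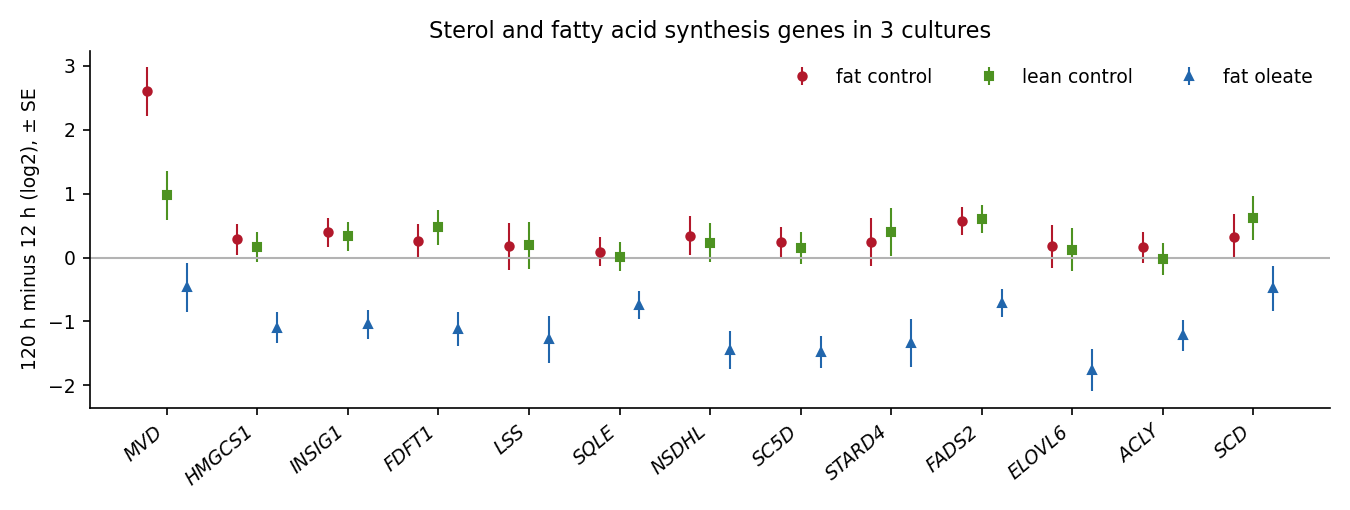
Difference between 120 h and 12 h (log2, with its SE from the fit of all arrays) for 13 sterol and fatty acid synthesis genes in fat control, lean control and fat oleate cultures, 3 arrays at each hour. In fat and lean control the values sit near or a little above 0 except MVD, and in fat oleate all 13 lie below 0.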

How the data were processed

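RNA was hybridised to 66 Affymetrix arrays of chicken probe sets, 3 per group. The deposited values are read as log2 from their range, -5.23 to 13.5, since the sources used here do not state the scale. The submitters' processing notes name MAS5 without a role or version. Sorted values of the arrays differed by at most 0.0615, which leaves no difference in overall level between arrays to be measured. Probe sets were named from GEO's platform annotation, which can be old: 27178 of 38535 had 1 gene, 177 several and 11180 none. Of 1506 list entries 1271 matched a named gene.

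Lower values were raised to 1.61, which is the middle of the arrays' 20th percentiles. A probe set was tested if some group had it above the array median in each of its 3 arrays (22060 were), control probe sets set apart. Each gene was represented by its probe set with the highest mean (10176 genes). limma 3.58.1 in R 4.3.3 fitted 22 group means (lmFit, eBayes with trend and robust), with Benjamini-Hochberg adjustment over all probe sets tested and calls at an adjusted p under 0.05. The second fit added replicate number as a block on the 12 fat line control arrays. It is printed beside the first because same-numbered arrays deviated together in every pair of hours, by their data; the labels give only the number. The fits were run first on simulated data with independent normal noise, and the outcome is not given here. For the blocked fit, replicate effects as wide as that noise were added. The random replicate block had a correlation of 0.192 in the real data, so the simulated setting differed from them.

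Named genes were the 12 largest rises and falls among called genes that moved alike in all 3 numbers (10 rises qualified), called list members, the largest called differences from the lean line and from oleate, and 10 check genes. Genes named from the blocked fit were added after their values were seen. The gene lists (43), and the comparison itself, were chosen with earlier results of these data known. Alternatives changed the floor, the filter, the array weights, the prior, the arrays fitted, the block and single arrays. The precision is limited by 3 arrays at each hour.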

Additional observations from a re-analysis of the deposited data

Results flagged for a closer look

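In 6 results the change from 12 h to 120 h in the fat line control culture differed from the change in another culture by the test of that difference. Against the lean line in control medium, the difference was 0.81 for REXO1 (-0.05 in the fat line, -0.87 in the lean line, adjusted p = 0.0241) and 0.97 for PDAP1 (-0.09 and -1.06, adjusted p = 0.00393). It was -3.08 for a KDM5A probe set (-0.88 in the fat line, 2.20 in the lean line, adjusted p = 0.0428). It was -3.28 for a CDC14A probe set (-1.65 and 1.62, adjusted p = 0.0478) and -2.37 for a LONRF1 probe set (-0.98 and 1.38, adjusted p = 0.0478). With the replicate block REXO1 alone of these 5 was called. The KDM5A, CDC14A and LONRF1 probe sets are not the ones with the highest mean for their gene. Their values were low, beside an array median of 4.17. The CDC14A mean went from 4.22 to 2.57 in the fat line and from 2.57 to 4.19 in the lean line. The KDM5A means were 4.73 to 3.85 and 2.845 to 5.04, and those of LONRF1 5.40 to 4.42 and 3.73 to 5.11. For MVD, the difference of oleate minus control in the fat line was -3.07, with 2.60 in control and -0.46 in oleate.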

How the results depend on the processing

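The count of 53 probe sets became 33 with no filter on low values, 203 with array weights, 32 with only the arrays compared, 105 with the 12 fat line control arrays, 983 with the replicate block, 345 with a random replicate block and 115 with a linear trend over log2 hour. Added after seeing the data, the replicate block gave 317 on the 6 arrays, 973 with no floor, and 1085, 344 and 113 without replicates 1, 2 and 3. Leaving out 1 array or 1 replicate number without the block gave 4 to 177.

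With no filter the steps 24 to 72 h and 72 to 120 h gave 3 and 7, fat minus lean 10, fat oleate 457 and oleate minus control 4. With only the arrays compared the lean line gave 217, and fat minus lean, fat oleate and oleate minus control gave 0 each. The replicate block gave 17 and 3 for the steps 24 to 72 h and 72 to 120 h, and 48 for oleate minus control. Of these 48, 27 were representative of a named gene. In all 27 the change from 12 h to 120 h was lower in oleate than in control, HMGCS1, NSDHL, ELOVL6 and LSS among them. These held 13 of 20 cholesterol genes and 3 of 12 fatty acid synthesis genes (0.265% of all genes), and within oleate the block called 14 of the 20 cholesterol genes lower (2.75% of all genes). For fat minus lean the block also called 5 probe sets, of which only REXO1 (adjusted p = 0.0491) was among the 5 called without it. The adjusted p became 0.0541 for PDAP1 and 0.171 each for the KDM5A, CDC14A and LONRF1 probe sets. In the lean line and in oleate not every same-numbered pair correlated above 0.1 (13 and 16 of 18), so the block is reported mainly here for those cultures. All 18 such pairs were still above 0 in both (mean 0.151 in the lean line and 0.223 in oleate).

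Leaving out 1 array gave 0 to 5 for the step 12 to 24 h, 1 to 4 for 24 to 72 h, 0 to 22 for 72 to 120 h, 540 to 1956 for the lean line, 0 to 19 for fat minus lean, 20 to 1881 for fat oleate and 0 to 236 for oleate minus control. No named gene called between 12 h and 120 h in the fat line changed sign under any alternative run. In the fat line, where neither was called, PDAP1 was 0.0028 with a linear trend and REXO1 0.0018 without replicate 2 at 12 h, against -0.09 and -0.05, and the medians of some lists near 0 also changed sign under some alternative. The cause of these changes was not tested, beyond the fewer samples that some fits hold. The replicate block changed no other call of a gene named as a largest rise or fall than those of SPON2 and UNC80. Other settings changed more of these 22 calls. With only the arrays compared 19 were lost, with only the 12 fat line control arrays 14, and with no filter on low values 12. The block without replicate 3 lost 13, the block on the 6 arrays 6, and array weights 0.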
